A study of Saccharomyces cerevisiae with 16 samples.

Results

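A set of 10 genes that yeast regulates by oxygen and heme was followed across a wine fermentation: ROX1 (YPR065W, chromosome XVI), HAP1 (YLR256W, XII), HEM13 (YDR044W, IV), OLE1 (YGL055W, VII), ANB1 (YJR047C, X), HYP2 (YEL034W, V), AAC3 (YBR085W, II), AAC1 (YMR056C, XIII), CYC7 (YEL039C, V) and COX5B (YIL111W, IX). They were taken as a named set and found through the open reading frame (ORF) names of their array probes, 1 probe each, so they were 10 of 6256 gene probes. CYC1 (YJR048W, X), COX5A (YNL052W, XIV) and PET9 (YBL030C, II), the aerobic partners of CYC7, COX5B and AAC3 that the set lacks, were added for comparison.

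The 8 groups came from Lalvin EC1118, an industrial wine strain of Saccharomyces cerevisiae, fermenting synthetic must in membrane bioreactors at 22 °C. In mixed fermentations the spoilage yeast Dekkera bruxellensis ZIM 701 was inoculated across a dialysis membrane, so the cells stayed apart while small molecules could pass. In control fermentations that other side was left sterile. Both kinds were sampled at 22 h, while cells grew exponentially, at 92 h and 144 h, early and late in stationary phase, and at 187 h, when the culture declined. Each kind was fermented in duplicate, giving n = 2 one-colour arrays in each group and 16 in all. No strain lacked or overexpressed a gene, and oxygen and heme were not among the labelled variables.

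Baker's yeast senses oxygen largely through heme, whose synthesis needs oxygen. With heme present, the activator Hap1 turns on respiratory genes and ROX1, and Rox1 then represses a set of low-oxygen genes together with the Tup1-Cyc8 corepressor. Several of those genes encode a second version of a protein whose first version is made in air, so paralog pairs such as CYC7 and CYC1 are a textbook readout of the switch. In wine fermentation dissolved oxygen is known to be consumed early.

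Levels are log2 processed intensities minus the 75th percentile of the same array. A level of a probe was compared only with the same probe on other arrays, never with another probe. "Rose" and "fell" are therefore relative to the bulk of the array and not to the amount of RNA per cell. In these bulk samples fewer living cells and less RNA per cell cannot be told apart. All 10 genes and the 3 partners were well above background on all 16 arrays, and no spot was saturated. Between 95.43% and 97.99% of all probes were well above background on each array, with median intensities of 556.4 to 3049. The replicate number was also the slide, so values within each slide are given where they matter. On both slides mixed arrays lay in 1 row and control arrays in the other, and each time had a column of its own, so effects of kind and time cannot be told apart from place on the slide by the layout. Whether same-numbered arrays came from 1 vessel sampled at each time is not stated in the labels. Were it so, the average of mixed against control would rest on the duplicate fermentations of each kind. Its p-values, and those of the permutation tests between kinds, would then lie below their true size. When same-numbered arrays of a kind were treated as 1 vessel (a random block), 216 genes passed in that average, against 530 otherwise.

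On the percentile scale all 10 genes changed between exponential growth and early stationary phase, a step in which most of the genome changed. Between 22 h and 92 h all 10 genes passed the test (6 rose and 4 fell, limma with p-values adjusted over 6184 genes, 4 arrays against 4), where 65.4% of all genes passed (36.2% higher and 29.2% lower). Of the low-oxygen versions, AAC3 and ANB1 fell while CYC7 and COX5B rose, so the 4 did not move as a block on this scale. With the spike-in scaling described below COX5B fell too (-0.71), and CYC7 rose by 0.26, which did not pass. In the authors' deposited table COX5B also fell (-0.36). The 4 arrays of 92 h did not overlap those of 22 h for any of the 10 genes, as for 63.4% of all genes. From 92 h to 144 h 5 of 10 passed (AAC1 and HAP1 rose; ANB1, AAC3 and HEM13 fell), against 15.4% of all genes (6.34% higher and 9.04% lower). The arrays of these times did not overlap for 5 of the 10 (HEM13, ANB1, AAC1, AAC3 and CYC7) and for 23.5% of all genes. From 144 h to 187 h 2 of 10 passed (CYC7 and OLE1 rose), against 11.3% of all genes (5.81% higher and 5.51% lower).

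**Figure D1:**
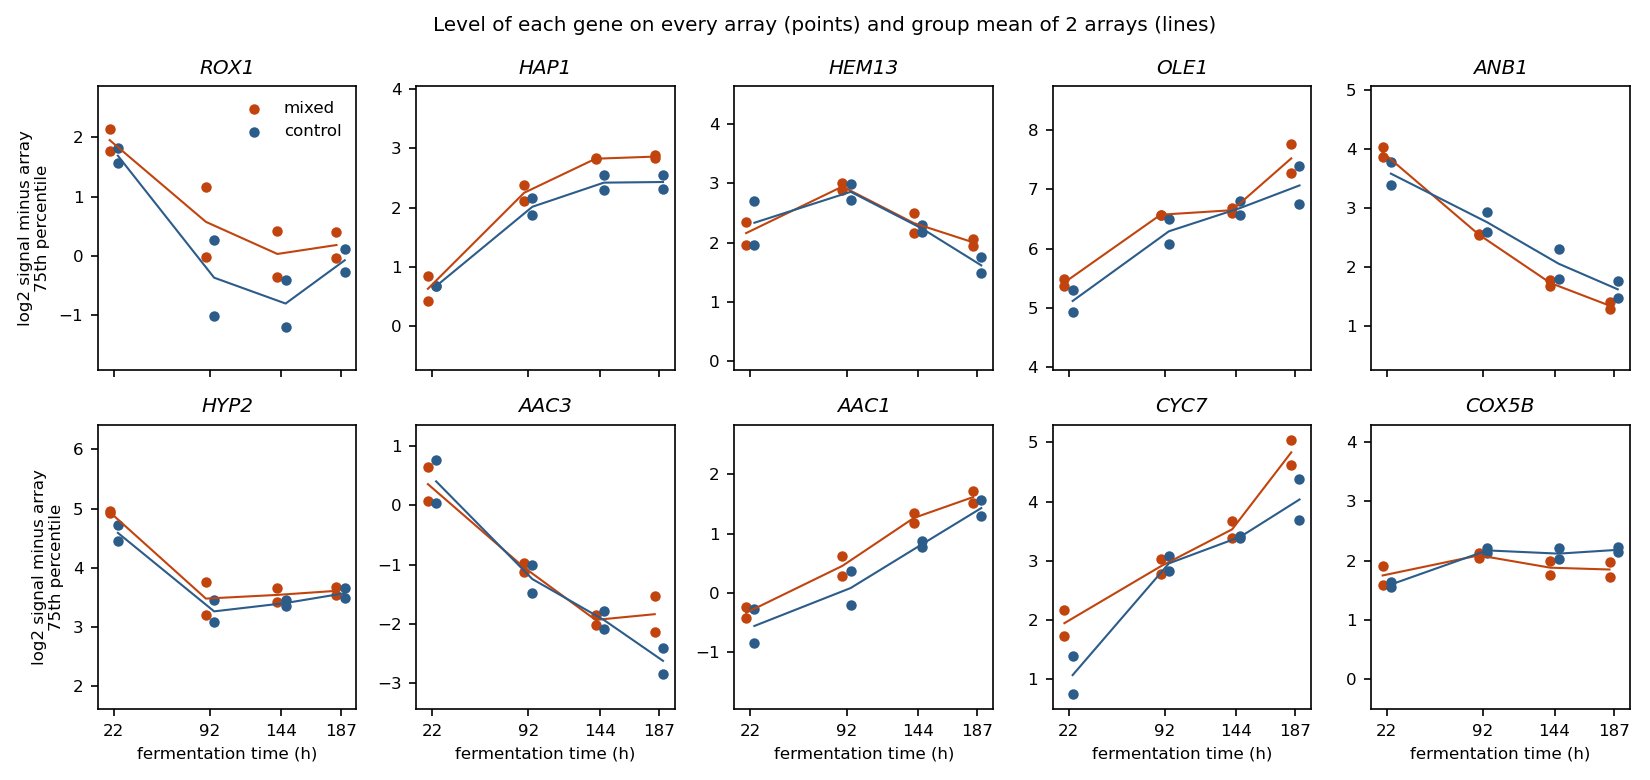
Each panel shows the level of 1 gene (log2 processed intensity minus the array's 75th percentile; every panel spans the same range) against fermentation time in hours, with mixed arrays drawn left of control arrays; points are single arrays and lines join the means of 2. ANB1 and AAC3 step down and HAP1, AAC1, CYC7 and OLE1 step up along the time course, and the widest gaps between mixed and control means are those of ROX1 at 92 h (0.94) and CYC7 at 22 h (0.88); with spike-in scaling the rise from 22 h to 92 h turned round for HEM13, AAC1, COX5B and OLE1.

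The size of the first step depended on the scaling. With spike-in scaling, which uses control RNAs added to each sample before labelling, the median of all genes moved by -1.09 between 22 h and 92 h, against 0.07 with the percentile. The spike-in fit also gave the genes named here the same SE, 0.31 in each time step. Whether a gene passed there therefore does not reflect its own spread between arrays. A call gained or lost with that scaling can come from this SE as well as from a changed difference. Of the 10 genes 0 then passed as higher and 5 as lower (ROX1, ANB1, HYP2, AAC3 and COX5B), and over all genes 335 passed as higher and 4400 as lower, against 2236 and 1806 with the percentile. In the authors' deposited table, whose arrays have another median at each time, the split was 2 higher and 5 lower. In the later steps the spike-in median moved by -0.36 and -0.32, and 2 of the 10 genes (ANB1 and AAC3, both lower) and then 0 passed. Over all genes 392 passed as higher and 559 as lower from 92 h to 144 h, and 164 and 3213 in the deposited table. From 144 h to 187 h these were 359 and 341, against 42 and 10 with spike-in scaling and 69 and 4682 in the deposited table, where 6 of the 10 (HEM13, ANB1, HYP2, AAC3, COX5B and HAP1) passed as lower. The falls of ROX1, ANB1, HYP2 and AAC3 and the paralog ratios below did not depend on this choice in direction, and ratios taken within an array are the same under any constant scaling of the array.

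The regulators came out in opposite directions. ROX1, the repressor of the low-oxygen genes, read 1.76 and 2.14 on the mixed arrays of 22 h, 1.16 and -0.02 at 92 h, 0.42 and -0.36 at 144 h and -0.04 and 0.40 at 187 h. On control arrays ROX1 read 1.82 and 1.56, then 0.27 and -1.01, then -0.40 and -1.21, and last 0.12 and -0.27. All 4 arrays of 22 h lay above every later array, and from 92 h on the arrays of different times overlapped. ROX1 fell by 1.72 ± 0.34 (SE) between 22 h and 92 h (adjusted p = 0.000824), to 0.304 times its level at 22 h, with within-slide values of -1.07 and -2.36. Its later steps of -0.49 ± 0.34 and 0.44 ± 0.34 did not pass (adjusted p = 0.339 and 0.390). The spread of ROX1 over the 4 arrays of 92 h, mixed and control together, was the widest of the set (SD 0.90). Between replicates the SD there was 0.83 in mixed and 0.91 in control fermentations (n = 2 each).

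HAP1, the heme-bound activator, read 0.42 and 0.84 on the mixed arrays of 22 h, 2.11 and 2.39 at 92 h, 2.83 and 2.82 at 144 h and 2.84 and 2.89 at 187 h. The control arrays gave 0.67 and 0.68, 2.16 and 1.87, 2.54 and 2.30, and 2.56 and 2.31 at the same times. HAP1 was thus lowest in exponential growth, and the arrays of 144 h and 187 h overlapped. It rose by 1.48 ± 0.12 in the first step (adjusted p = 1.21e-06, slides 1.59 and 1.37), which with spike-in scaling was 0.31 and did not pass (adjusted p = 0.349), and by 0.49 ± 0.12 in the second (adjusted p = 0.0216). The second rise did not pass without either mixed array of 144 h, the first mixed array of 92 h, the first control array of 144 h or the second control array of 92 h (highest adjusted p = 0.108), nor in the deposited table (0.18). In the laboratory strain S288C a transposon interrupts HAP1. Where the probe lies relative to that insertion was not tested.

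HEM13 and OLE1 encode enzymes that use oxygen itself. HEM13, coproporphyrinogen oxidase of heme synthesis and a classical target of Rox1, read 1.96 and 2.35 on the mixed arrays of 22 h, 2.89 and 3.002 at 92 h, 2.49 and 2.16 at 144 h and 1.95 and 2.06 at 187 h. Control arrays read 1.96 and 2.71, 2.72 and 2.99, 2.18 and 2.29, and 1.48 and 1.75. HEM13 thus had its peak at 92 h, 22 h overlapped both later times, and 187 h lay below 144 h. It rose by 0.65 ± 0.16 into 92 h (adjusted p = 0.00427), a direction that spike-in scaling turned to -0.51 and the deposited table to -0.16, and fell by 0.62 ± 0.16 into 144 h (adjusted p = 0.0286). That fall did not pass when either mixed array of 92 h, either control array of 144 h, the second mixed array of 144 h or the second control array of 92 h was left out (highest adjusted p = 0.122). The last step of -0.47 ± 0.16 did not pass (adjusted p = 0.0815), and the arrays of 187 h and 144 h did not overlap, as for 12.1% of all genes. It passed with quantile normalization (-0.54, adjusted p = 0.0367), in the deposited table (-1.01, adjusted p = 0.000189) and without either control array of 22 h (adjusted p = 0.0402).

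OLE1, the fatty acid desaturase, read 5.37 and 5.49 on the mixed arrays of 22 h, 6.57 and 6.58 at 92 h, 6.69 and 6.61 at 144 h and 7.77 and 7.28 at 187 h. Control arrays of OLE1 read 5.31 and 4.92, 6.51 and 6.08, 6.56 and 6.81, and 7.39 and 6.75. The 22 h arrays were the lowest in both kinds and the other times overlapped in part. OLE1 rose by 1.16 ± 0.17 in the first step (adjusted p = 9.09e-05), which became -0.0047 with spike-in scaling and 0.35 in the deposited table (not passing in either), and by 0.63 ± 0.17 in the last (adjusted p = 0.0388, slides 0.95 and 0.30). The last rise lay near the threshold: it passed in 6 of the 16 fits that left out 1 array, at 0.47 to 0.79 over these fits. It did not pass when any 1 array of 92 h or of 144 h was left out. Nor did it pass without the first mixed or the first control array of 187 h. The arrays of 92 h are not part of this step, and without any 1 of them the difference stayed at 0.63. The last rise of OLE1 also did not pass with quantile normalization (0.30), normexp (0.15), spike-in scaling (0.37), the deposited table (0.0899) or the compared times alone (adjusted p = 0.0984).

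**Figure D2:**
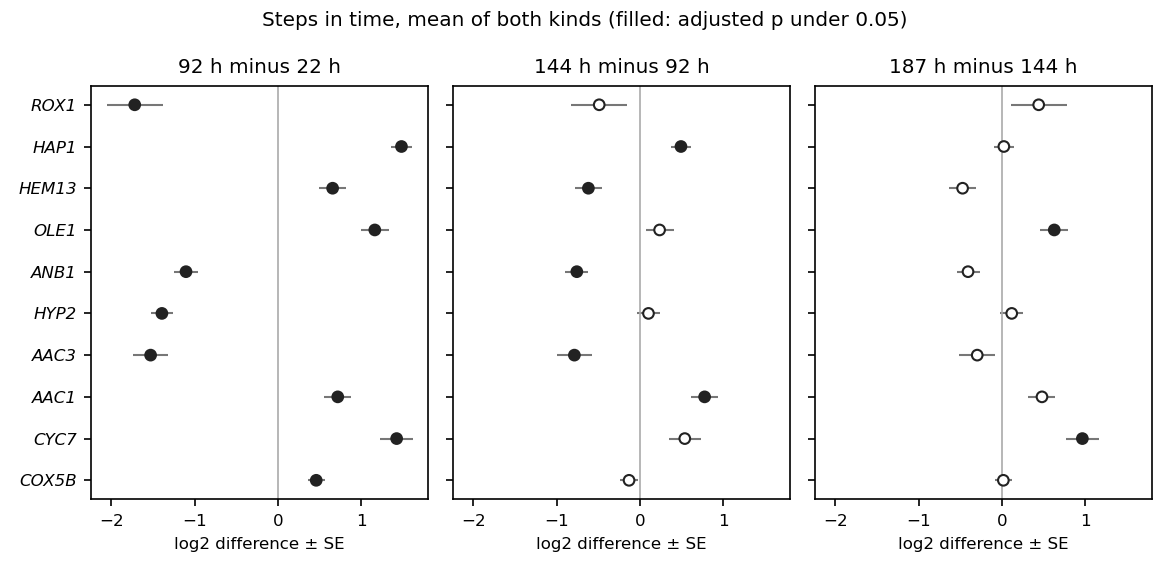
Each panel shows, for the 10 genes, the log2 difference ± SE of a later minus an earlier time over mixed and control arrays together (4 arrays against 4); filled points passed at an adjusted p under 0.05 and open points did not. All 10 points are filled in the first step, 5 in the second and 2 in the third; in the first step HEM13, AAC1, COX5B and OLE1 lay below 0 with spike-in scaling.

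ANB1 and HYP2 encode near-identical copies of translation factor eIF5A, ANB1 being the copy for low oxygen and HYP2 the copy for air. ANB1 read 3.85 and 4.02 on the mixed arrays of 22 h, 2.54 and 2.56 at 92 h, 1.68 and 1.79 at 144 h and 1.30 and 1.41 at 187 h. On the control arrays ANB1 read 3.38 and 3.78, 2.59 and 2.92, 1.81 and 2.31, and 1.49 and 1.77. The mean of ANB1 was thus lower at each sampling than at the one before in both kinds, with overlap only between 144 h and 187 h. ANB1 fell by 1.10 ± 0.14 (adjusted p = 2.99e-05, slides -1.05 and -1.16) and then by 0.76 ± 0.14 (adjusted p = 0.00671). The last step of -0.41 ± 0.14 had an adjusted p of 0.0766. It passed without the first control array of 144 h (-0.53, adjusted p = 0.0413), with quantile normalization (-0.44), with normexp (-0.44), in the deposited table (-0.94) and with the replicate block (adjusted p = 0.0281).

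HYP2 read 4.93 and 4.95 on the mixed arrays of 22 h, 3.76 and 3.21 at 92 h, 3.66 and 3.42 at 144 h and 3.68 and 3.55 at 187 h. Its control arrays gave 4.72 and 4.46, 3.45 and 3.08, 3.35 and 3.46, and 3.48 and 3.66. HYP2 fell by 1.39 ± 0.14 into 92 h (adjusted p = 4.47e-06), and the later differences of 0.10 ± 0.14 and 0.12 ± 0.14 did not pass, although the last passed as lower in the deposited table (-0.42, adjusted p = 0.0165). The ratio of ANB1 to HYP2 on the same array, set to 0 at its mean over the 4 arrays of 22 h, averaged 0.29 ± 0.45 (SD, n = 4) at 92 h, -0.57 ± 0.34 at 144 h and -1.09 ± 0.21 at 187 h. Over the later times together its difference from 22 h was -0.46, which did not pass an exact permutation test within kind (two-sided p = 0.212, adjusted p = 0.302 over 10 pair tests). Because the copies are so alike, each probe may take up transcript of the other, and how well the probes separate them was not tested.

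AAC3, AAC1 and PET9 encode ADP/ATP carriers of the mitochondrial inner membrane, AAC3 being the low-oxygen version and PET9 the main carrier in air. AAC3 read 0.07 and 0.65 on the mixed arrays of 22 h, -0.97 and -1.13 at 92 h, -2.02 and -1.84 at 144 h and -1.53 and -2.14 at 187 h. On control arrays AAC3 read 0.04 and 0.77, -1.48 and -1.005, -2.09 and -1.78, and -2.85 and -2.40. The first 2 steps separated the times without overlap, and 144 h and 187 h overlapped. AAC3 fell by 1.53 ± 0.21 into 92 h (adjusted p = 6.84e-05, slides -1.28 and -1.78), to 0.347 times its level at 22 h, and by 0.79 ± 0.21 into 144 h (adjusted p = 0.0305). The second fall did not pass without either mixed array of 92 h or of 144 h, the first control array of 144 h or the second control array of 92 h (highest adjusted p = 0.134).

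AAC1, the minor aerobic carrier, went the other way. It read -0.43 and -0.24 on the mixed arrays of 22 h, 0.62 and 0.29 at 92 h, 1.18 and 1.35 at 144 h and 1.51 and 1.72 at 187 h. The control arrays of AAC1 read -0.27 and -0.84, 0.38 and -0.21, 0.87 and 0.77, and 1.57 and 1.29. No array of 22 h reached one of 92 h, and no array of 92 h one of 144 h. AAC1 rose by 0.72 ± 0.16 into 92 h (adjusted p = 0.00222), a direction that turned to -0.45 with spike-in scaling and to -0.0973 in the deposited table, and by 0.77 ± 0.16 into 144 h (adjusted p = 0.0113). The second rise did not pass without the first control array of 144 h (adjusted p = 0.0524) or the second control array of 92 h (adjusted p = 0.0567). Its last step of 0.48 ± 0.16 did not pass (adjusted p = 0.0755).

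The carriers gave the clearest shift within arrays. Set to 0 at 22 h, the log2 ratio of AAC3 to AAC1 averaged -2.24 ± 0.45 (SD, n = 4) at 92 h, -3.81 ± 0.31 at 144 h and -4.58 ± 0.57 at 187 h. No later array reached the lowest array of 22 h. The mean over the later times was -3.54 below 22 h (exact permutation test within kind, two-sided p = 0.00128, the smallest its arrangements allow, adjusted p = 0.00638). Against PET9 the ratio of AAC3 averaged -1.35 ± 0.45, -2.75 ± 0.43 and -3.46 ± 0.87, and the later times lay -2.52 below 22 h with the same exact permutation p of 0.00128. PET9 itself had mean levels of 2.17, 1.98, 2.60 and 3.01 at 22, 92, 144 and 187 h (SD 0.16 to 0.41, n = 4), and none of its steps passed. The first (-0.18 ± 0.20) passed as lower with spike-in scaling (-1.35, adjusted p = 4.46e-05) and in the deposited table (-0.99, adjusted p = 0.000693). The step into 144 h (0.62 ± 0.20, adjusted p = 0.0585) passed with median scaling, the vessel or the replicate block, the robust variance model, the compared times alone, or without the second control array of 144 h or either control array of 187 h (lowest adjusted p = 0.0133).

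**Figure D3:**
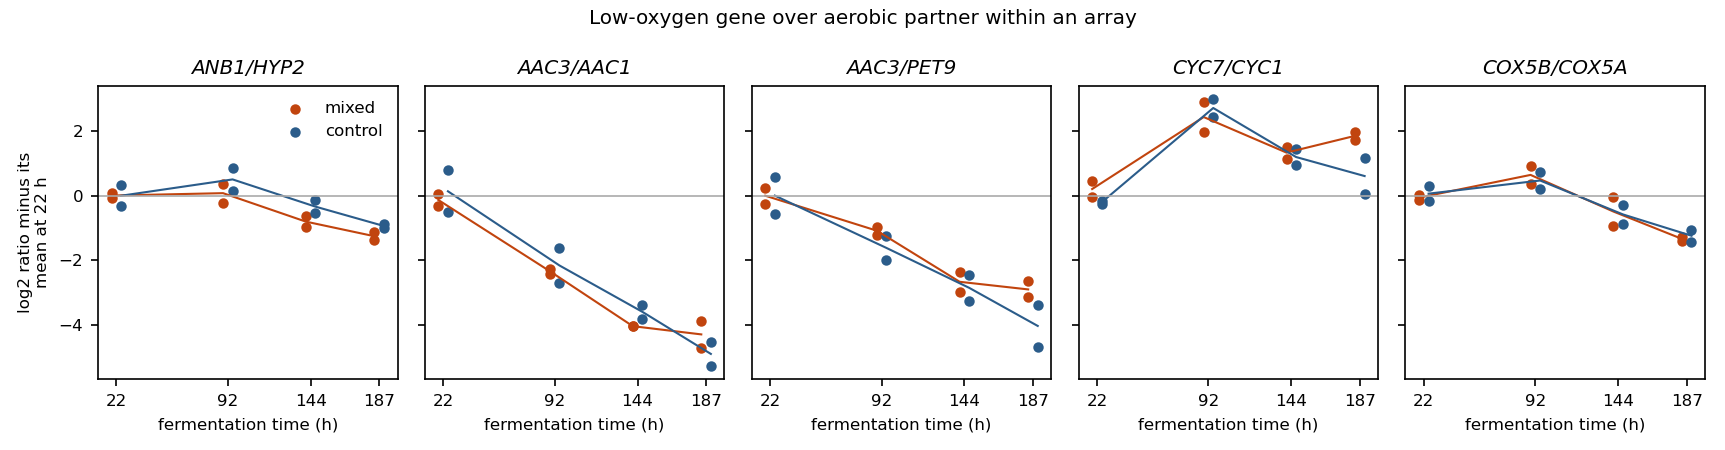
Each panel shows a log2 ratio of a low-oxygen gene to its aerobic partner on the same array, minus the mean of that ratio over the 4 arrays of 22 h, against fermentation time in hours; mixed arrays are drawn left of control arrays, points are single arrays and lines join the means of 2. The ratios of AAC3 go down to -4.58 (to AAC1) and -3.46 (to PET9) at 187 h, that of CYC7 to CYC1 goes up to 2.57 at 92 h and is 1.23 at 187 h, and those of ANB1 and COX5B return to and then pass below 0.

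CYC7, which encodes the minor cytochrome c that is relatively favoured at low oxygen, rose in the first and the last step. It read 1.73 and 2.17 on the mixed arrays of 22 h, 3.04 and 2.78 at 92 h, 3.68 and 3.39 at 144 h and 5.05 and 4.62 at 187 h. The control arrays of CYC7 read 1.39 and 0.75, 3.08 and 2.83, 3.42 and 3.39, and 3.69 and 4.38. The 4 arrays of each time lay above all 4 arrays of the time before. CYC7 rose by 1.42 ± 0.19 into 92 h (adjusted p = 5.85e-05), or 2.68-fold, which with spike-in scaling was 0.26 and did not pass (adjusted p = 0.446). The next step of 0.54 ± 0.19 did not pass (adjusted p = 0.0817), except with quantile normalization (0.61) or the compared times alone (adjusted p = 0.0196), and that into 187 h was 0.96 ± 0.19 (adjusted p = 0.0163), or 1.95-fold. The last rise did not pass without the second control array of 144 h (adjusted p = 0.0722), with spike-in scaling (0.71), in the deposited table (0.33) or with the compared times alone (adjusted p = 0.0561).

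CYC1, the main cytochrome c in air, had its low at 92 h. Its mean level was 1.19 at 22 h, 0.05 at 92 h, 1.89 at 144 h and 2.89 at 187 h (SD 0.34 to 0.59, n = 4). CYC1 fell by 1.14 ± 0.29 (adjusted p = 0.00461), rose by 1.84 ± 0.29 (adjusted p = 0.00328) and rose again by 1.00 ± 0.29 (adjusted p = 0.0487), and the last call held in 2 of the 16 fits that left out 1 array, those without either mixed array of 92 h (highest adjusted p over the 16 fits 0.179). That rise was also lost with quantile normalization (adjusted p = 0.0568), spike-in scaling (0.74, adjusted p = 0.373), the deposited table (0.46, adjusted p = 0.163) and the compared times alone (adjusted p = 0.0718). The ratio of CYC7 to CYC1 was 2.57 ± 0.46 (SD, n = 4) at 92 h, 1.26 ± 0.26 at 144 h and 1.23 ± 0.85 at 187 h, relative to 22 h. At 187 h it averaged 1.85 in mixed and 0.60 in control fermentations. There it overlapped 22 h, with a lowest value of 0.06 against a highest of 0.45 at 22 h. Over the later times it was 1.68 higher than at 22 h (exact permutation test within kind, two-sided p = 0.00383, adjusted p = 0.0128). In the first step CYC7 rose while CYC1 fell, and into 187 h both rose. In the reference annotation CYC1 lies next to ANB1 with no gene between, and CYC7 and HYP2 are separated by 4 genes.

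COX5B, the low-oxygen version of a regulatory subunit of cytochrome c oxidase, had the smallest first step of the set on the percentile scale, though not with spike-in scaling or in the deposited table. It read 1.59 and 1.91 on the mixed arrays of 22 h, 2.05 and 2.13 at 92 h, 1.76 and 2.00 at 144 h and 1.97 and 1.73 at 187 h. On control arrays it read 1.63 and 1.56, 2.14 and 2.21, 2.02 and 2.21, and 2.23 and 2.14. COX5B rose by 0.46 ± 0.10 into 92 h (adjusted p = 0.00223), a direction that turned to -0.71 with spike-in scaling and to -0.36 in the deposited table, both past the threshold, and its later differences of -0.13 ± 0.10 and 0.02 ± 0.10 did not pass. In the deposited table both passed as lower (-0.44, adjusted p = 0.00327, and -0.52, adjusted p = 0.000588). COX5A, the aerobic version, had mean levels of 1.43, 1.33, 2.29 and 3.05 at the 4 times (SD 0.27 to 0.37, n = 4). It rose by 0.96 ± 0.20 into 144 h (adjusted p = 0.0122) and by 0.77 ± 0.20 into 187 h (adjusted p = 0.0382).

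Both COX5A calls were lost with spike-in scaling (0.66 and 0.51) and in some fits that left out 1 array. The first ran from 0.79 to 1.12 in those fits. It did not pass without the first control array of 144 h or the second mixed or second control array of 92 h. The second call held in 9 of the 16 fits, at 0.60 to 0.93 over these fits. It was lost without either mixed array of 187 h, either control array of 92 h or the first control array of 187 h. It was also lost without the second mixed or the second control array of 144 h. The arrays of 92 h are not part of that step, and without either control array of 92 h the difference stayed at 0.77. The COX5A rise into 187 h was also lost in the deposited table (0.23, adjusted p = 0.309), with quantile normalization (adjusted p = 0.0526) and with the compared times alone (adjusted p = 0.0863). The first step of COX5A (-0.10 ± 0.20) passed as lower with spike-in scaling (-1.26, adjusted p = 0.000132) and in the deposited table (-0.91, adjusted p = 0.00134). The ratio of COX5B to COX5A averaged 0.55 ± 0.34 (SD, n = 4) at 92 h, -0.53 ± 0.45 at 144 h and -1.29 ± 0.16 at 187 h. Since it was above 22 h at first and below it later, the mean over the later times of -0.42 did not pass (exact permutation test, two-sided p = 0.367, adjusted p = 0.459).

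Between mixed and control fermentations none of the 10 passed at 22 h, 92 h, 144 h or 187 h or in the average over the 4 times (limma, 2 arrays against 2, or 8 against 8), where 0%, 0.0162%, 0%, 7.26% and 8.57% of all genes passed. At 187 h those were 2.81% higher and 4.45% lower, and in the average 3.2% higher and 5.37% lower. At such shares a set of 10 genes can hold no call without standing apart from the rest. At an unadjusted p under 0.05 there were 1, 0, 1, 4 and 4 of the 10 in those comparisons, against 391, 348, 567, 1790 and 1727 of 6184 genes. In the average 8 of 10 differences of mixed minus control lay above 0, with a median of 0.24, against -0.03 over all genes, and 7 of 10 had the same sign on both slides. The test of whether the difference changed with time passed for 0 of the 10 and for 0% of all genes (0 of the 10 and 441 of all genes at an unadjusted p under 0.05).

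CYC7 had the smallest adjusted p of the set in the average, 0.44 ± 0.14 (adjusted p = 0.0695, slides 0.48 and 0.40). The test of its change with time did not pass (adjusted p = 0.704). CYC7 averaged 1.95 in mixed and 1.07 in control fermentations at 22 h, and 4.83 in mixed and 4.04 in control fermentations at 187 h (n = 2 each). At 22 h the difference was 0.88 ± 0.27 (adjusted p = 0.572, slides 0.33 and 1.42), at 92 h -0.05, at 144 h 0.13 and at 187 h 0.80 ± 0.27 (adjusted p = 0.0890, slides 1.36 and 0.23). It passed in the average with median scaling (0.48, adjusted p = 0.0474), without the first control array of 22 h (0.52, adjusted p = 0.0386) or without the second control array of 187 h (0.52, adjusted p = 0.0397), and at 187 h without that last array (1.14, adjusted p = 0.0494). Over 26 settings its adjusted p in the average ran between 0.0386 and 0.253.

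ROX1 had the largest average difference of the set, 0.58 ± 0.24 (adjusted p = 0.141, slides 0.37 and 0.78). At 92 h the 2 mixed arrays, at 1.16 and -0.02, overlapped the 2 control arrays, at 0.27 and -1.01, while the difference was 0.89 on 1 slide and 1.00 on the other. The average difference of HAP1 was 0.26 ± 0.09 (adjusted p = 0.0822) and that of AAC1 0.31 ± 0.11 (adjusted p = 0.110). The difference of AAC3 at 187 h was 0.79 ± 0.30 (adjusted p = 0.117), with 1.32 on 1 slide and 0.25 on the other. ANB1 differed by 0.36 ± 0.20 at 22 h and by -0.21, -0.33 and -0.27 at the later times, none past the test and each without overlap of the 2 arrays against 2.

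Groups of 2 separate easily. Arrays of mixed and control fermentations did not overlap for 4 of the 10 genes at 22 h (ANB1, HYP2, CYC7 and OLE1), for 3 at 92 h (ANB1, COX5B and OLE1), for 5 at 144 h (ROX1, ANB1, AAC1, COX5B and HAP1) and for 6 at 187 h (HEM13, ANB1, AAC3, CYC7, COX5B and HAP1). Over all genes the shares were 34.3%, 42.6%, 41.7% and 55.5%. None of the 5 paralog ratios passed between kinds: the exact permutation test within times gave -0.30 for ANB1 over HYP2 (adjusted p = 0.166), -0.07 for AAC3 over AAC1 (0.871), 0.46 for AAC3 over PET9 (0.231), 0.38 for CYC7 over CYC1 (0.267) and 0.01 for COX5B over COX5A (0.951). These are averages over the 4 times. At 92 h alone the differences, not tested, were -0.42, -0.18, 0.53, -0.28 and 0.17 in the same order. At 187 h they were -0.31, 0.60, 1.13, 1.24 and -0.10. The ratio of ANB1 to HYP2 passed without the first control array of 22 h, at -0.38.

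**Figure D4:**
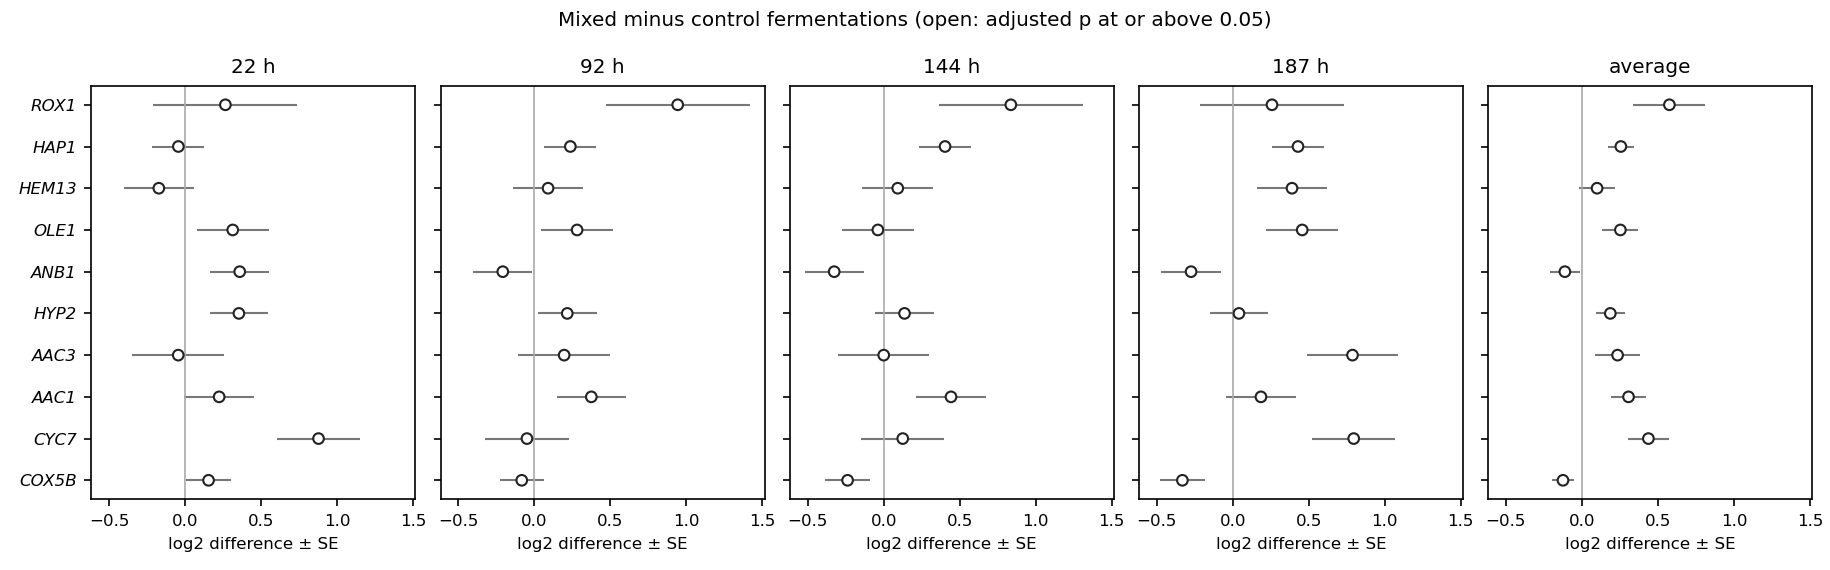
Each panel shows, for the 10 genes, the log2 difference ± SE of mixed minus control fermentations at 1 time (2 arrays against 2) or averaged over the 4 times (8 against 8); open points did not pass at an adjusted p under 0.05. All points are open, and 8 of 10 lie above 0 in the average.

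Other genes of the pathway were read from 5 lists of 51 genes, chosen with earlier results of these data known. In them HAP2, ECM22, HMX1, CTT1, COX6 in the first step, ARE1, EUG1, AUS1, FAS2 and FAA4 were named after their values were seen. With spike-in scaling the first-step calls of these lists were 0 higher and 9 lower for the regulators, 0 and 8 for heme, 1 and 9 for the aerobic genes, 0 and 10 for the low-oxygen genes and 0 and 2 for the fatty acid genes. Of the calls between kinds given below, SPT23 (adjusted p = 0.999) and YHB1 (0.160) at 187 h were lost with that scaling. So were HEM3 (adjusted p = 0.642), YHB1 (0.633) and TIR3 (0.0938) in the average. TIR2 (adjusted p = 0.00365) and AUS1 (5.36e-05) passed in the average. These spike-in calls used the same SE for each gene, 0.44 at 187 h and 0.22 in the average, and not the gene's own spread. SPT23 also did not pass in the deposited table (adjusted p = 0.0516). In the list of regulators, 3 of 12 rose and 3 fell between 22 h and 92 h, with a median of 0.06 against 0.07 over all genes. Of all genes 36.2% passed as higher and 29.2% as lower in that step. UPC2, the sterol-sensing activator of anaerobic genes, rose by 1.61 ± 0.17 (adjusted p = 6.71e-06; 0.44 and not passing with spike-in scaling) and MGA2, an activator of OLE1, by 0.65 ± 0.13 (adjusted p = 0.000930), although MGA2 turned to -0.51 with spike-in scaling and to -0.16 in the deposited table. HAP2, a subunit of the Hap activator of respiratory genes, stood at 0.32 ± 0.12 and passed as lower with spike-in scaling (-0.84, adjusted p = 0.0106) and in the deposited table (-0.49, adjusted p = 0.00135). CYC8, a corepressor that works with Rox1, fell (-1.08 ± 0.13), as did MOT3, another repressor of low-oxygen genes (-1.21 ± 0.23), and ECM22, a sterol regulator (-0.41 ± 0.13). HAP2 was lost without either control array of 22 h or of 92 h or the second mixed array of 22 h or of 92 h (highest adjusted p = 0.116), and ECM22 without the second mixed or second control array of 22 h (highest adjusted p = 0.0580). TUP1, the partner of CYC8 in the corepressor, stood at -0.09 ± 0.23 and did not pass (adjusted p = 0.759). No regulator passed in the later steps, and 1 passed between kinds: SPT23, the other activator of OLE1, was 0.58 ± 0.16 higher in mixed fermentations at 187 h (adjusted p = 0.0483), a call that held in 2 of the 16 fits that left out 1 array (those without the first mixed or the second control array of 187 h; highest adjusted p = 0.285).

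Of 9 genes of heme synthesis and breakdown, 1 rose and 3 fell between 22 h and 92 h, with a median of -0.20 against 0.07 over all genes. The shares of all genes in that step were 36.2% higher and 29.2% lower. HEM12 (uroporphyrinogen decarboxylase) fell (-0.67 ± 0.09), as did HEM2 (aminolevulinate dehydratase, -0.75 ± 0.16) and HMX1 (heme oxygenase, -1.43 ± 0.30), while PUG1, a porphyrin transporter, rose by 0.52 ± 0.14, which turned to -0.64 with spike-in scaling and to -0.29 in the deposited table. The other 5 enzymes of the list did not pass: HEM1 (0.08), HEM3 (-0.04), HEM4 (-0.12), HEM14 (-0.20) and HEM15 (-0.22). HEM1, the first enzyme of the route, rose by 0.44 ± 0.13 into 144 h (adjusted p = 0.0427), a call that held only without the first mixed array of 144 h or any array of 187 h (highest adjusted p = 0.127). In the average over times HEM3 was lower in mixed fermentations by -0.53 ± 0.13 (adjusted p = 0.0373), a call that held only without the first mixed array of 144 h or of 187 h or the first control array of 92 h or of 144 h (highest adjusted p = 0.102).

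The 12 aerobic partners and Hap-activated genes, which include CYC1, COX5A and PET9, rose late on the percentile scale. Over all genes the first step had 36.2% higher and 29.2% lower. Between 22 h and 92 h 3 rose: QCR8, a subunit of ubiquinol-cytochrome c reductase (1.98 ± 0.11), CYB2, lactate dehydrogenase (1.29 ± 0.28; 0.13 with spike-in scaling), and CTT1, cytosolic catalase (0.56 ± 0.16, turned to -0.61 with spike-in scaling and to -0.25 in the deposited table). In the same step 4 fell: HMG1, a sterol pathway reductase (-3.14 ± 0.15), YHB1, flavohemoglobin (-2.48 ± 0.19), COX6, a cytochrome c oxidase subunit (-0.81 ± 0.13), and CYC1. Into 144 h 8 of 12 rose and 0 fell, where 6.34% of all genes passed as higher and 9.04% as lower. The median was 0.71 against -0.06 over all genes, with the smallest adjusted p for HMG1 (1.55 ± 0.15) and QCR8 (0.77 ± 0.11). Into 187 h 6 rose and 0 fell, where 5.81% of all genes passed as higher and 5.51% as lower. The median was 0.71, with the smallest adjusted p for the cytochrome c oxidase subunits COX4 (1.10 ± 0.11) and COX6 (0.93 ± 0.13). With 1 array left out the counts of the later steps ran between 5 and 9 and between 3 and 6. With spike-in scaling they were 3 and 0. The deposited table gave 6 higher and 1 lower, then 2 higher and 4 lower. YHB1 was lower in mixed fermentations at 187 h by -1.35 ± 0.27 (adjusted p = 0.0308), a call lost without either control array of 92 h, the first control array of 187 h or the second mixed array of 187 h (highest adjusted p = 0.193). In the average over times YHB1 stood at -0.53 ± 0.14 (adjusted p = 0.0373), a call that held only without the first mixed array of 92 h, 144 h or 187 h, the first control array of 144 h or the second control array of 187 h.

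The 12 other low-oxygen genes split both ways in the first step, where 36.2% of all genes passed as higher and 29.2% as lower. Between 22 h and 92 h 3 rose: the sterol transporter PDR11 (1.76 ± 0.20; 0.60 and not passing with spike-in scaling), the sterol acyltransferase ARE1 (0.45 ± 0.13, turned to -0.72 with spike-in scaling and to -0.36 in the deposited table) and the iron transporter FET4 (0.73 ± 0.14, turned to -0.44 with spike-in scaling and to -0.0868 in the deposited table), and 3 fell: the cell wall mannoproteins TIR1 (-0.77 ± 0.23) and TIR2 (-0.73 ± 0.23) and EUG1, a protein disulfide isomerase (-0.36 ± 0.13). TIR2 was lost without the first mixed or the first control array of 92 h (highest adjusted p = 0.0706), and EUG1 without the first mixed array of 22 h or of 92 h, the second control array of 22 h or either control array of 92 h (highest adjusted p = 0.105). TIR3 fell by 0.72 ± 0.18 into 144 h and TIR4 by 0.90 ± 0.18 into 187 h, the only calls of the list in those steps. Of all genes 15.4% and 11.3% passed there. The list medians were -0.28 and -0.41. TIR4 was lost without the second control array of 144 h (adjusted p = 0.0723) and TIR3 without either mixed or either control array of 92 h or the first array of either kind of 144 h (highest adjusted p = 0.113). Over all genes 3.2% passed as higher in mixed fermentations and 5.37% as lower in the average over times. In that average 3 of 12 of this list, whose genes were chosen with earlier results known, were higher and 0 lower, with a median of 0.23 against -0.03 over all genes: TIR2 (0.79 ± 0.16, adjusted p = 0.0230), TIR3 (0.54 ± 0.13, adjusted p = 0.0318) and the sterol transporter AUS1 (1.01 ± 0.25, adjusted p = 0.0336). That count ran between 0 and 4 with 1 array left out. TIR2 was lost without the first control array of 187 h, the second mixed array of 92 h or the second control array of 92 h or of 144 h (highest adjusted p = 0.0563). TIR3 held in 4 such fits, those without the first mixed array of 144 h or of 187 h or the second control array of 22 h or of 187 h. AUS1 held in 5, those without the first mixed array of 22 h, 144 h or 187 h or the second control array of 22 h or of 187 h (highest adjusted p = 0.0784).

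The list of fatty acid synthesis and activation, which surrounds OLE1, had all 6 genes pass in the first step, 4 higher and 2 lower, where 65.4% of all genes passed, with a median of 1.14 against 0.07 over all genes. None of the 4 rises passed with spike-in scaling (ACC1 0.37, FAS1 -0.0856, FAS2 0.04 and FAA4 0.08), while both falls did. ACC1, which commits acetyl-CoA to fatty acids, rose by 1.54 ± 0.11 and FAS1, a fatty acid synthase subunit, by 1.08 ± 0.11. The other 2 that rose were FAS2, the other synthase subunit (1.21 ± 0.13), and FAA4, an acyl-CoA synthetase (1.24 ± 0.18). The acyl-CoA synthetase FAA1 fell (-1.92 ± 0.19), as did the elongase ELO1 (-1.25 ± 0.15). Into 144 h ACC1 rose by a further 0.40 ± 0.11 (adjusted p = 0.0298), which was lost without either mixed array of 92 h, the first mixed array of 144 h, the second control array of 92 h or the second control array of 144 h (highest adjusted p = 0.136).

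Within the set, levels over the 16 arrays grouped along time, and these correlations are descriptions over arrays that share 4 times. ANB1 and AAC3 had a Pearson r of 0.93 and CYC7 and OLE1 of 0.95, while ANB1 and AAC1 stood at -0.96. ROX1 and HYP2, which both made 1 step down after 22 h, had an r of 0.90. HEM13, with its peak at 92 h, stood at -0.87 with CYC1.

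The genes whose levels were most like each member over the 16 arrays were ERG29 for ROX1 (r = 0.96), YML116W-A for HAP1 (0.99), TUS1 for HEM13 (0.91), OLI1 for OLE1 (0.996), GLN4 for ANB1 (0.99), YLR108C for HYP2 (0.98), NCL1 for AAC3 (0.98), YER091C-A for AAC1 (0.98), GAS4 for CYC7 (0.97) and TMH18 for COX5B (0.93). The next were the iron permease gene FTR1 (0.95) and YGK1 (0.93) for ROX1, and HMS2 (0.89) and DAK1 (0.89) for HEM13. For ANB1 they were RPL19A (0.99) and TRX1 (0.99), and for HYP2 IDI1 (0.96) and YOL029C (0.95). AAC1 had ASK1 (0.97) and MTC7 (0.97), and AAC3 had PUS9 (0.98) and EMC2 (0.97). CYC7 had COX13 (0.97) and QCR10 (0.97), and COX5B had ITC1 (0.93) and COS7 (0.92). OLE1 had YGL088W (0.98) and DTR1 (0.97), and HAP1 had MRX6 (0.99) and XBP1 (0.99). HEM13 and COX5B had the lowest best match of the set.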

How the data were processed

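RNA of 16 S. cerevisiae samples was measured on one-colour Agilent arrays. Per the file headers, Feature Extraction 10.7.3.1 gave background-corrected intensity values for 2 spots of each probe. The authors' deposited table of log2 values was used only as an alternative, because its medians differ by time. Outlier spots (50) were left out, spots averaged as log2, and each array's 75th percentile subtracted. Probes well above background on at least 2 arrays were kept (6184; 72 removed). limma 3.58.1 in R 4.3.3 fitted 1 mean per group with 8 residual and 3.26 prior degrees of freedom, with Benjamini-Hochberg adjustment per comparison and a threshold of 0.05. Paralog ratios were tested by exact permutation, adjusted over 10 tests. Tables used pandas 2.3.3 and numpy 2.4.6 in Python 3.11.15, and figures matplotlib 3.10.9.

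The members and lists were chosen with earlier results of these data known. Named genes were the 10 members, the 3 partners, per list 2 genes per direction of smallest adjusted p among those that passed, and the 3 genes of highest r per member. Symbols came from a RefSeq table that matched 5756 of 6256 identifiers. No coordinates are printed, because the arrays' genome build differs from it. A promoter motif description was planned and not run. On simulated data for the average of mixed minus control (6184 genes), 36, 45, 50 and 50 of 50 genes were recovered at log2 shifts of 0.5, 1, 2 and 3, with 5 false calls. The simulated arrays were independent, with no vessel, slide or time effect. Recovery with repeated samples of a vessel was not tested. Same-numbered mixed and control arrays deviated together with r between -0.47 and 0.25, so replicate numbers were not taken as pairs.

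Alternatives changed the scaling, filter, block or variance model, left out each array in turn, or fitted only the times compared.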

Additional observations from a re-analysis of the deposited data

How the results depend on the processing

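Of the 8 comparisons of means, the count of the 10 genes that passed stayed at 10 between 92 h and 22 h with any 1 array left out and was 5 with spike-in scaling. Between 144 h and 92 h it was 2 with spike-in scaling and 1 to 5 with 1 array left out. Between 187 h and 144 h it was 0 with spike-in scaling and with the compared times alone, 6 in the deposited table, and 0 to 3 with 1 array left out. In mixed minus control it was 1 in the average with median scaling and 0 to 1 with 1 array left out, and 0 to 1 at 187 h. First-step rises of the set and the lists that turned round with spike-in scaling were HEM13 (-0.51), AAC1 (-0.45), COX5B (-0.71), OLE1 (-0.00466), MGA2 (-0.51), PUG1 (-0.64), FET4 (-0.44), FAS1 (-0.0856), ARE1 (-0.72), CTT1 (-0.61) and HAP2 (-0.84), and in the deposited table HEM13 (-0.16), AAC1 (-0.0973), COX5B (-0.36), MGA2 (-0.16), PUG1 (-0.29), FET4 (-0.0868), ARE1 (-0.36), CTT1 (-0.25) and HAP2 (-0.49). Both scalings moved the median of all genes in that step, to -1.09 and -0.74. With 1 array left out the mixed minus control ratios ran from -0.387 to -0.211 (ANB1 to HYP2, past the threshold at -0.38 without the first control array of 22 h), -0.235 to 0.0904 (AAC3 to AAC1), 0.297 to 0.624 (AAC3 to PET9), 0.240 to 0.514 (CYC7 to CYC1) and -0.101 to 0.122 (COX5B to COX5A). The ratios of later times to 22 h ran from -0.624 to -0.294, -3.87 to -3.22, -2.80 to -2.24, 1.54 to 1.83 and -0.554 to -0.311 in the same order. Quantile normalization and normexp are not constant scalings of an array. They took the ratio of ANB1 to HYP2 over the later times from -0.459 to -0.152 and -0.169, and the other ratios of later times to 22 h moved less.

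Counts over all genes in the average of mixed minus control were 137 with spike-in scaling (133 higher and 4 lower, against 198 and 332), 216 with the vessel as a random block (correlation 0.0662) and 56 to 864 with 1 array left out, and by the deposited table's values 245 were higher and 254 lower. At 187 h they were 44 with spike-in scaling (38 higher and 6 lower, against 174 and 275), 0 with that time alone and 0 to 576 with 1 array left out. They were 108 and 3377 from 92 h to 144 h and 52 and 4751 from 144 h to 187 h with spike-in scaling and in the deposited table, 88 in that last step with the compared times alone, and 251 to 1098 and 85 to 686 with 1 array left out. At 187 h the deposited values gave 198 higher and 205 lower. At 22 h they were 89 with spike-in scaling and 0 to 50 with 1 array left out, and for the change with time 19 and 0 to 33. The replicate block used numbers that are also the slides and that were not taken as pairs. It called ANB1 from 144 h to 187 h (-0.41, adjusted p = 0.0281) and PET9 from 92 h to 144 h (0.62, adjusted p = 0.0133). It also called 1 gene of all genes for the change with time. The causes of these changes were not tested. With 1 array left out, the lone array of its group is assumed to vary like the other groups. Leaving out an array of a time not compared keeps the difference itself and changes only the variance, the degrees of freedom and the adjustment. A call lost in that way does not show that the difference depends on that array. The number of arrays limits the precision.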

Other observations

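HMG1 and HMG2, which encode the paired reductases of sterol synthesis and were set against each other after their values were seen, parted at 92 h. HMG1, the version favoured in air, had mean levels of 2.67, -0.47, 1.08 and 1.03 at 22, 92, 144 and 187 h (SD 0.56, 0.25, 0.19 and 0.14 over 4 arrays). HMG2, the low-oxygen version, had 1.89, 1.89, 1.70 and 1.49 at the same times (SD 0.07 to 0.19), and none of its steps passed on the percentile scale. The median of all genes moved by -1.09 with spike-in scaling and by -0.74 in the deposited table from 22 h to 92 h. The steady level of HMG2 in that step is therefore relative to the bulk of the array.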
